A study of Mus musculus with 6 samples.

Results

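The genes that copy DNA in S phase and those that carry a cell through G2 and mitosis were followed in splenic B cells of mice without the tetraspanin CD37 (CD37KO) and of their wild-type littermates (WT). The 40 genes were taken from a written list, 19 of S phase and 21 of G2/M. A probe set that names no other gene was found for 39 of the 40, out of 19935 genes measured in this way. The exception was cyclin B1 (Ccnb1), so that 19 S phase and 20 G2/M genes were measured. Where a gene had several probe sets, the brightest was used.

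Each array held RNA of CD43-/B220+ splenocytic B cells. The 3 WT arrays came from wild-type mice and the 3 CD37KO arrays from mice with both copies of Cd37 disrupted, all C57BL/6J littermates labelled as 3 months old and untreated. The study gives several age ranges for the mice of its experiments, and the labels' age is used here. CD37 is a tetraspanin, a membrane protein of mature B cells, and its gene was disrupted in the whole animal and not in B cells alone. The cells had been enriched by removing CD43-positive cells with magnetic beads, which takes away most T cells, granulocytes, plasma cells and activated B cells, and B220 had served to check purity. Values are log2 intensities, so that a difference of 1 is a change of 2-fold. A p-value from limma, the program used for the tests, sets a genotype difference against the spread within groups, moderated over all genes. The labels call these 6 arrays biological replicates.

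Most B cells of a resting spleen are quiescent, and dividing ones are found above all in germinal centres and among plasmablasts. On entry into the cycle, cyclin E and E2F transcription factors switch on the genes for the MCM helicase, its loading factors and the enzymes that supply nucleotides. The genes for mitosis are switched on later, by B-MYB and FOXM1 together with the MuvB complex, which binds a short promoter element called the cell cycle homology region (CHR), often close to CCAAT boxes bound by NF-Y. Transcripts of both waves are low in quiescent cells. In bulk RNA, fewer cells of a type and less RNA per cell cannot be told apart.

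Cd37 itself read 11.99, 11.82 and 12.08 in the WT arrays and 8.15, 8.17 and 8.17 in the CD37KO arrays, a log2 difference of -3.80 (SE 0.0762). The groups did not overlap for Cd37, and their order was that of the labels. The B cell markers Ms4a1 (CD20), Ebf1 and Ptprc (the gene of B220) were above background in all 6 arrays, with Ms4a1 between 12.22 and 12.47. Spn, the gene of CD43, was also above background in all 6 arrays, between 6.83 and 7.09. CD37KO array 1 stood apart by its neutrophil transcripts, whose values are given with the other cell types further on, and counts that single arrays moved are also given without them. Background was set at a log2 value of 5.76, under which lay the means of 95% of 1027 olfactory receptor genes, a family made in sensory neurons of the nose.

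By their means over the 6 arrays, 36 of the 39 measured cell cycle genes lay above background, and 34 did so in every array. Gins1, Birc5 and Cenpf had means below that line, and Tpx2 and Cenpe were above it by their means but in 4 of 6 arrays each. With the line drawn at the 90th percentile instead all 39 passed, and at the 99th percentile 29 did.

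The promoters of the genes differed by phase in the motifs they hold. In RefSeq's promoter table (GRCm38.p6, from 250 bases before to 50 bases after the start), 16 S phase genes and 15 G2/M genes had an entry. An E2F match was defined as TTCCCGC or TTCGCGC or TTGCCGC or TTGGCGC, a CHR match as TTTGAA and a CCAAT match as CCAAT, each on either strand, and E2F matches can overlap one another or a CCAAT match. An E2F match was found for 9 of the 16 S phase genes (56.2%) and 2 of the 15 G2/M genes (13.3%), beside 10.9% of all 27025 genes in the table. A CHR match was found for 3 S phase genes (18.8%) and 11 G2/M genes (73.3%), beside 20.2% of all genes. CCAAT was frequent in both lists, in 11 S phase genes (68.8%) and 13 G2/M genes (86.7%), beside 41.1% of all genes. A match describes the letters of these windows and is not evidence of binding.

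The 250 bases before the start of 4 of the genes are printed to show the motifs of each phase, 5′ to 3′ on the gene's strand with the matches in capitals. Mcm5 and Mcm6, subunits of the helicase, hold E2F matches written on both strands (TTCGCGC or TTGGCGC, or their reverse complements) and CCAAT boxes, which read ATTGG where they lie on the other strand. Cdk1, the mitotic kinase, holds E2F, CHR and CCAAT matches, and Top2a, which untangles chromosomes, holds CHR and CCAAT matches only.
Mcm5, chr8:75109259-75109508, plus strand: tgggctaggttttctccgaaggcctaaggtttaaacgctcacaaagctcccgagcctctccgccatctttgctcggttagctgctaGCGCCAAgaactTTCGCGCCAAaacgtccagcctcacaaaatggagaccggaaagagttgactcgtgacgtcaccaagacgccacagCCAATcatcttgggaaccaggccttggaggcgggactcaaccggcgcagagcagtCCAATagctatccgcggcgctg
Mcm6, chr1:128359706-128359955, minus strand: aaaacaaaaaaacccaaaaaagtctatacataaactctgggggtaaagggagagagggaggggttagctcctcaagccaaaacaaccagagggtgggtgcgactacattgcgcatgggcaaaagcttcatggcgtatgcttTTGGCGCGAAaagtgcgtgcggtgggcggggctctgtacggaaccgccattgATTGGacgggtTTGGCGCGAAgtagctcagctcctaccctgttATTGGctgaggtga
Cdk1, chr10:69352913-69353162, minus strand: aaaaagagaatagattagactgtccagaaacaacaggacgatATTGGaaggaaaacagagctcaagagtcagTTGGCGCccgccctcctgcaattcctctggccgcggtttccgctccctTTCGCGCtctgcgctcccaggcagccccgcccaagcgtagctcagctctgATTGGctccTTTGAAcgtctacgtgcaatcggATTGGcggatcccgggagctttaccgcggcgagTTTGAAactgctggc
Top2a, chr11:99024190-99024439, minus strand: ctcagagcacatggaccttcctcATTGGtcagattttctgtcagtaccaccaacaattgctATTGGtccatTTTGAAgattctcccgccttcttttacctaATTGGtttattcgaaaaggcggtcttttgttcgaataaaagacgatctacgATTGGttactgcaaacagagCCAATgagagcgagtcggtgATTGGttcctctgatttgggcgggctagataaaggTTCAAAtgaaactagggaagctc

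At an adjusted p under 0.05, no cell cycle gene differed between the genotypes, but 38 of the 39 had a higher mean in CD37KO. A higher mean was found in 8337 of all 19935 genes and in 5921 of the 10527 genes above background. With an array left out, 32 to 37 of the 39 had a positive difference. The lowest adjusted p among the 39 was 0.801 by limma with Benjamini-Hochberg adjustment over all 19935 genes, of which 11 genes, or 0.0552%, passed. The median log2 difference of the 39 genes was 0.21, with a range from -0.11 to 0.52, against a median of -0.02 over all genes and 0.02 over the 10527 genes above background. At limma's unadjusted p under 0.05, 1 of the 39 was higher and 0 were lower, beside 2.96% of all genes higher and 2.99% lower. The same gene, Mcm10, was the 1 of 39 whose CD37KO values all lay above its WT values, beside 4.33% of all genes, and 0 of 39 lay wholly below, beside 7.57%. These shares do not exceed those of all genes.

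The count at the unadjusted p rested on single arrays. Without CD37KO array 2 it became 27 of 39, when 6.48% of all genes were higher, and without WT array 2 it became 9, when 3.71% were. Without WT array 3, CD37KO array 1 or CD37KO array 3 it was 0 in each case. With array weights, which let limma count a deviating array for less, it was 24, when 7.23% of all genes were higher. The weights were 4.10 for WT array 1, 0.46 for WT array 2, 0.55 for CD37KO array 2 and 0.76 to 1.19 for the others. In none of these settings did a cell cycle gene reach an adjusted p under 0.05, and the lowest was 0.163, without CD37KO array 2.

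**Figure D1:**
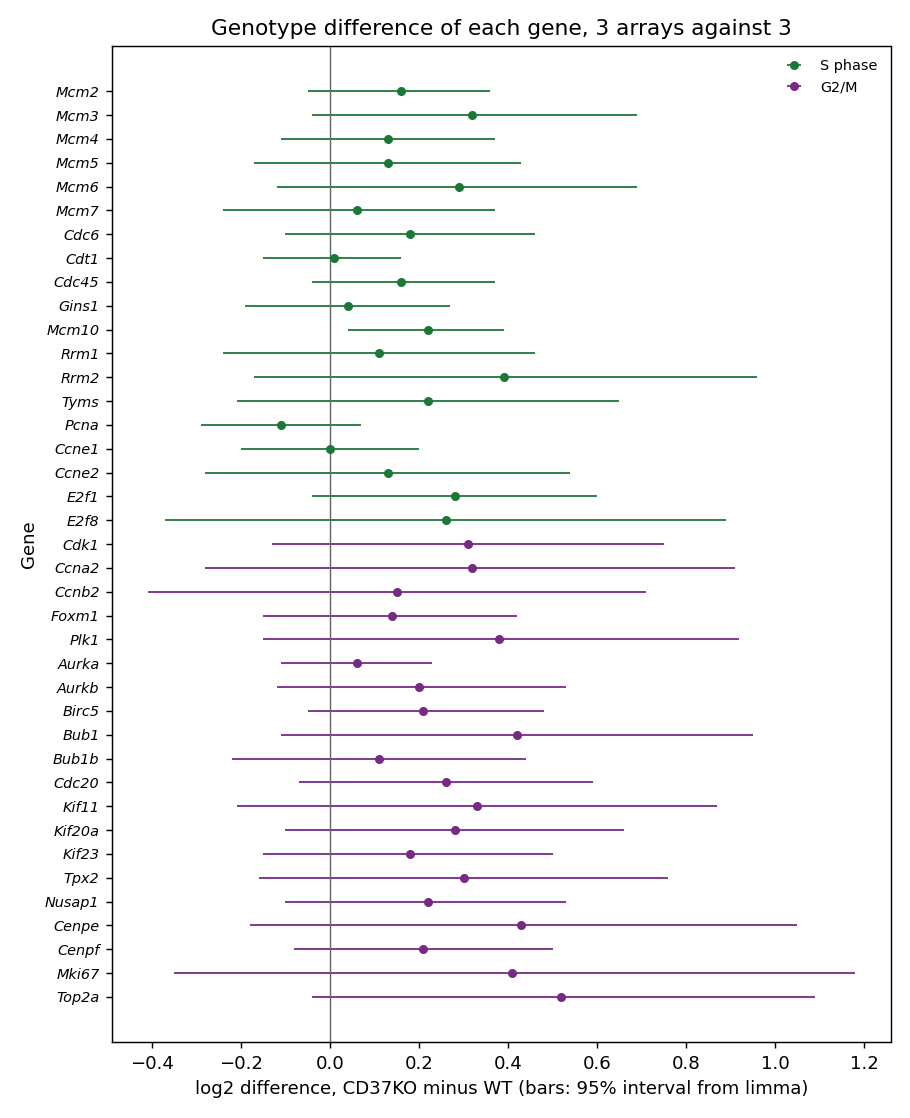
Log2 difference between CD37KO and WT (points) with its 95% interval from limma (bars) for each of the 39 genes, S phase in green and G2/M in purple, 3 arrays against 3. All points but that of Pcna lie at or above 0, and every interval but that of Mcm10 includes 0.

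The MCM helicase, which unwinds DNA ahead of the replication fork, is made of 6 subunits, Mcm2 to Mcm7. Their log2 differences ran from 0.06 for Mcm7 to 0.32 for Mcm3, with a median of 0.14. Mcm3 read 7.67, 7.88 and 7.47 in WT and 8.16, 7.64 and 8.19 in CD37KO, a difference of 0.32 (SE 0.159, 95% interval -0.04 to 0.69, limma's unadjusted p = 0.0762, adjusted p = 0.801). CD37KO arrays 1 and 3 were above all WT arrays, and CD37KO array 2 fell among them. Mcm5 read 8.28, 8.56 and 8.14 in WT and 8.64, 8.24 and 8.50 in CD37KO, a difference of 0.13 (SE 0.131, 95% interval -0.17 to 0.43). For Mcm5, whose promoter is printed above, WT array 2 lay between CD37KO arrays 1 and 3, and WT array 3 was lowest.

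Mcm10, which helps the loaded helicase to fire, read 6.09, 6.07 and 5.96 in WT and 6.33, 6.13 and 6.31 in CD37KO. Its groups did not overlap, although CD37KO array 2 lay only just above WT array 1. The difference was 0.22 (SE 0.0772, 95% interval 0.04 to 0.39), with limma's unadjusted p = 0.0223 and adjusted p = 0.801, and the two-sided exact permutation test gave p = 0.10, the smallest it can give with 3 against 3. The other origin factors, Cdc6 and Cdt1 (which load the helicase), Cdc45 and Gins1 (which travel with it), differed by 0.18, 0.01, 0.16 and 0.04. Cdt1 stayed between 9.67 and 9.82 in all 6 arrays.

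Among the genes of nucleotide supply, Rrm2, the cell cycle-regulated subunit of ribonucleotide reductase, read 7.50, 7.78 and 7.17 in WT and 8.26, 7.29 and 8.09 in CD37KO. Both groups were widely spread, with CD37KO array 2 below the WT arrays 1 and 2 and CD37KO arrays 1 and 3 above all WT, and the difference of 0.39 (SE 0.247) had a 95% interval from -0.17 to 0.96. Its partner Rrm1 differed by 0.11 and thymidylate synthase (Tyms) by 0.22. Pcna, the sliding clamp of DNA polymerase, was the exception in direction. It read 11.82, 11.87 and 11.71 in WT and 11.79, 11.72 and 11.57 in CD37KO, a difference of -0.11 (SE 0.0786, 95% interval -0.29 to 0.07), with overlapping groups. Its dimmer probe set gave -0.02.

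Of the regulators of S phase entry, E2f1, an activating E2F, read 6.65, 6.74 and 6.49 in WT and 7.10, 6.57 and 7.06 in CD37KO. CD37KO arrays 1 and 3 were above all WT arrays and CD37KO array 2 was not, and the difference was 0.28 (SE 0.140, 95% interval -0.04 to 0.60). E2f8, a repressing E2F made late in S phase, read 6.68, 6.93 and 6.03 in WT and 7.14, 6.26 and 7.02 in CD37KO. WT array 3 and CD37KO array 2 were lowest for E2f8, and its difference of 0.26 (SE 0.273) was smaller than its error. Cyclin E1 (Ccne1) differed by 0.00 and cyclin E2 (Ccne2) by 0.13.

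In G2/M, all 20 measured genes had a positive difference, with a median of 0.27 and a range from 0.06 to 0.52. Cdk1, the kinase that drives entry into mitosis, read 5.98, 6.37 and 5.77 in WT and 6.43, 5.97 and 6.65 in CD37KO, a difference of 0.31 (SE 0.193, 95% interval -0.13 to 0.75). The groups overlapped, with WT array 2 close to CD37KO array 1. Its partners cyclin A2 (Ccna2) and cyclin B2 (Ccnb2) differed by 0.32 and 0.15, and the transcription factor Foxm1 by 0.14.

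Bub1, a kinase of the spindle checkpoint, read 6.74, 7.05 and 6.31 in WT and 7.33, 6.64 and 7.40 in CD37KO. CD37KO arrays 1 and 3 were highest and WT array 3 lowest, and the difference was 0.42 (SE 0.231, 95% interval -0.11 to 0.95). Birc5 (survivin, of the chromosomal passenger complex) read 5.70, 5.80 and 5.43 in WT and 5.87, 5.68 and 6.01 in CD37KO, with 3 of the 6 arrays above background and a difference of 0.21 (SE 0.116). Of the other mitotic kinases and checkpoint genes, Plk1 differed by 0.38, Aurkb by 0.20, Bub1b by 0.11, Cdc20 (the activator of the anaphase-promoting complex) by 0.26 and Aurka by 0.06. Aurka was the flattest of these 7 genes, between 6.99 and 7.19 in the 6 arrays.

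The kinesins and spindle genes differed by 0.18 (Kif23) to 0.43 (Cenpe), with a median of 0.28 over 7 genes. Cenpe, the kinesin that links kinetochores to microtubules, read 5.81, 6.20 and 5.48 in WT and 6.56, 5.63 and 6.60 in CD37KO, a difference of 0.43 (SE 0.269, 95% interval -0.18 to 1.05). CD37KO array 2 and WT array 3 were below background for Cenpe, and CD37KO arrays 1 and 3 were highest. Kif11, the motor that separates the spindle poles, differed by 0.33, and the spindle assembly factor Tpx2 by 0.30.

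Top2a, which untangles sister chromosomes, had the largest difference of the 39 genes. It read 7.62, 7.95 and 7.21 in WT and 8.35, 7.58 and 8.42 in CD37KO, a difference of 0.52 or 1.44-fold (SE 0.247, 95% interval -0.04 to 1.09, limma's unadjusted p = 0.0651, adjusted p = 0.801). CD37KO arrays 1 and 3 lay above all WT arrays and CD37KO array 2 lay below WT array 1. A second, dimmer probe set of Top2a read 6.28, 7.03 and 6.58 in WT and 6.23, 6.60 and 6.43 in CD37KO and had the other sign, -0.21. Mki67 (Ki-67, the usual marker of proliferating cells) read 8.34, 8.91 and 7.74 in WT and 9.0, 8.09 and 9.16 in CD37KO, a difference of 0.41 (SE 0.334, 95% interval -0.35 to 1.18). For Mki67, WT arrays 2 and 3 lay farther apart than the group means did.

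**Figure D2:**
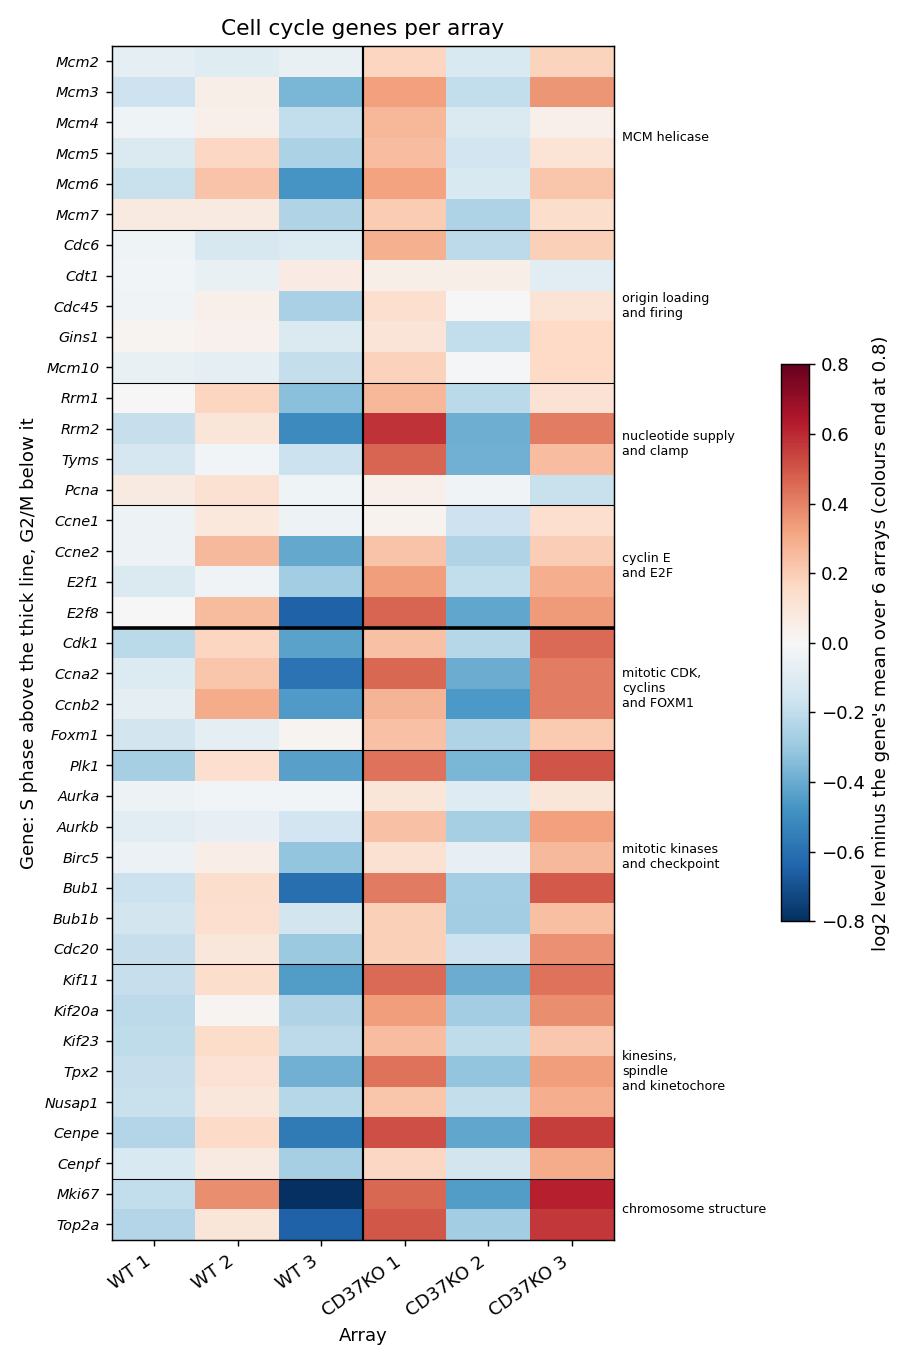
Log2 level of each of the 39 genes (rows, by role, S phase above the thick line and G2/M below it) in each array (columns), minus the gene's mean over the 6 arrays. Red is above the mean and blue below, and in 32 of the 39 rows the highest 3 arrays are CD37KO 1, CD37KO 3 and WT 2.

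Arrays of the same genotype thus differed in these genes, and did so in an order that most of the genes shared. The median of the within-group SD was 0.234 over the 39 genes and 0.104 over all genes above background, and 25 of the 39 (64.1%) exceeded 0.21, the 90th percentile of the latter. These 25 were 9 of the 19 S phase genes (47.4%) and 16 of the 20 G2/M genes. The median range among the 3 WT arrays was 0.36 and among the 3 CD37KO arrays 0.50, beside a median genotype difference of 0.21. Over all genes above background, the median ranges were 0.19 in WT and 0.17 in CD37KO. The WT range was larger than the genotype difference in 31 of the 39 genes (79.5%), near the 83.2% of the genes above background, and the CD37KO range in 37 (94.9%), beside 83.6%.

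The order of the arrays was described after their values had been seen. CD37KO array 1, CD37KO array 3 and WT array 2 were the highest 3 in 32 of the 39 genes (82.1%), beside 11.6% of the genes above background. They were so in 14 of 19 S phase genes and in 18 of 20 G2/M genes. WT array 3 or CD37KO array 2 was the lowest in 37 of 39 (94.9%), beside 34.2% of the genes above background, and CD37KO array 2 was the lowest of its own group in 37 of 39, beside 43.4%. CD37KO arrays 1 and 3 were both above all WT arrays in 30 genes (76.9%), beside 19.9% of the genes above background, while CD37KO array 2 was below all WT arrays in 12 (30.8%), beside 22.2%. The genes do not give independent readings of this order, since they were read from the same 6 RNA samples and are transcribed together in cycling cells.

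The S phase and G2/M lists were compared array by array through the mean of their values, each gene centred on its mean over the 6 arrays. The S phase mean was -0.06, 0.06 and -0.24 in WT and 0.25, -0.18 and 0.17 in CD37KO. The G2/M mean was -0.16, 0.12 and -0.36 in WT and 0.31, -0.28 and 0.37 in CD37KO. Both lists thus had CD37KO arrays 1 and 3 and then WT array 2 above 0 and the other 3 arrays below it, and G2/M varied over the wider range, 0.73 against 0.49.

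The genotype difference was 0.16 for the S phase mean, with an SD within groups of 0.193, and 0.27 for the G2/M mean, with an SD of 0.304, so both were smaller than the spread between arrays. The gap, S phase minus G2/M, was 0.11, -0.05 and 0.12 in WT and -0.06, 0.10 and -0.21 in CD37KO. It was negative in the 3 arrays where both lists were above 0 and positive in the other 3. This sign follows where both lists move together and G2/M varies over the wider range. The gap thus cannot separate a shift between phases from that difference in range. By genotype the gap differed by -0.12 (SD within groups 0.127), with overlapping groups. These means are descriptions without a test.

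**Figure D3:**
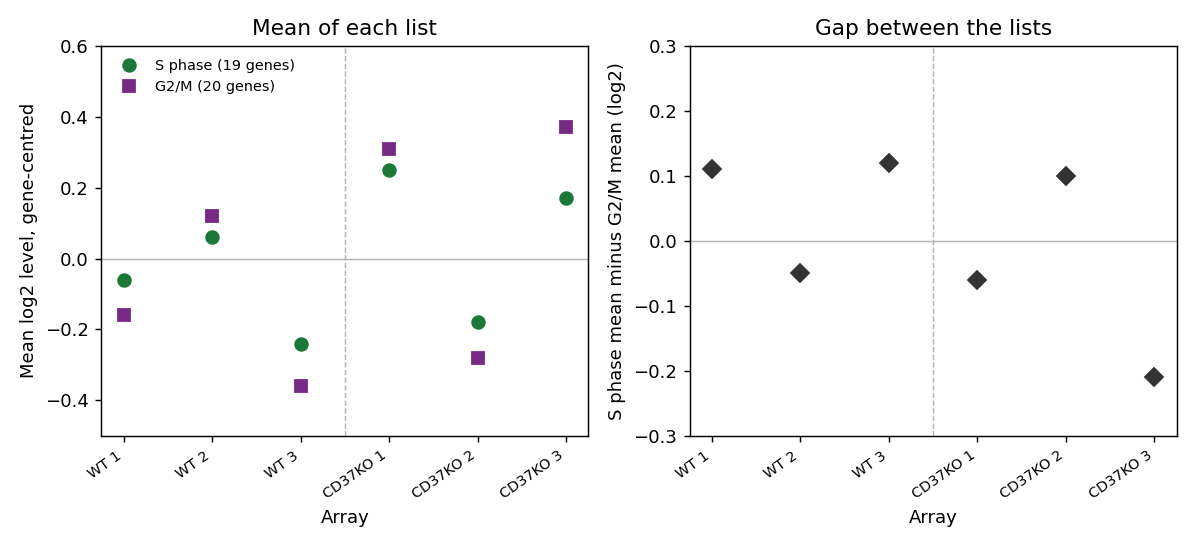
Mean centred log2 level of the 19 S phase genes (circles) and 20 G2/M genes (squares) in each array (left), and the gap between the lists (right). G2/M lies farther from 0 than S phase in all 6 arrays, and WT and CD37KO arrays are found on both sides of 0.

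Genes of the cycle outside these lists were read in the same way. Their counts of positive differences stand beside 5921 of the 10527 genes above background. Of 41 further replication genes, 35 had a positive difference, with a median of 0.10, 4 were higher and 1 lower at limma's unadjusted p under 0.05, and CD37KO 1, CD37KO 3 and WT 2 were the highest 3 arrays in 17 (41.5%). Of 50 further mitotic genes, 45 had a positive difference, with a median of 0.17, 7 were higher and 0 lower at that p, and the same 3 arrays were highest in 36 (72.0%). Of 29 regulators and brakes of G1, 19 had a positive difference, with a median of 0.05, 1 was higher and 0 lower, and the same arrays were highest in 4 (13.8%), near the share among all genes above background.

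The counts at the unadjusted p stand beside 2.96% of all genes higher with all 6 arrays, and they moved with single arrays here too. Of all genes, 6.48% were higher without CD37KO array 2, 3.71% without WT array 2 and 2.66% without WT array 3. The share was 2.23% without WT array 1, 1.91% without CD37KO array 1 and 1.52% without CD37KO array 3. It was 7.23% with array weights and 3.22% with the replicate number as a block. Of the further mitotic genes, 28 were higher without CD37KO array 2, 14 without WT array 2, 2 without WT array 1 and 0 without WT array 3, CD37KO array 1 or CD37KO array 3, and 25 with array weights and 2 with the replicate number as a block. Of the further replication genes, 12 were higher without CD37KO array 2, 6 without WT array 2, 2 without CD37KO array 3, 1 without WT array 1, WT array 3 or CD37KO array 1, and 14 with array weights. Of the G1 regulators, 7 were higher without CD37KO array 2 and 0 to 2 without any other single array.

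The single gene of the cycle with a call was Pold1, which carries the catalytic activity of DNA polymerase delta. It read 8.99, 8.98 and 8.90 in WT and 8.40, 8.30 and 8.26 in CD37KO, a difference of -0.63 (SE 0.0655, limma's adjusted p = 0.0238). Pold1 lies on chromosome 7, as does Cd37, and the part of that location in the difference was not tested. The call did not hold without any single array, where the adjusted p ran from 0.0573 to 0.207, nor with the replicate number as a block (adjusted p = 0.117), while the sign did not change.

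Pold2, the second subunit of the same polymerase, went the other way. It read 8.65, 8.57 and 8.67 in WT and 8.97, 8.91 and 8.84 in CD37KO, a difference of 0.28 (SE 0.0648, limma's unadjusted p = 0.00249, adjusted p = 0.801), without overlap. Thymidine kinase (Tk1, 0.31), Orc6 of the origin recognition complex (0.18) and Rfc3 of the clamp loader (0.15) were also higher at the unadjusted p. Of the mitotic genes, Cks1b, which binds cyclin-dependent kinases, read 7.31, 7.34 and 7.13 in WT and 7.77, 7.36 and 7.89 in CD37KO, a difference of 0.41 (SE 0.133, limma's unadjusted p = 0.0141, adjusted p = 0.801). Its groups did not overlap, with CD37KO array 2 just above WT array 2.

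Ckap2l (0.24), the kinase Nek2 (0.39), Kif22 (0.23), Kif18b (0.38) and Cdca5 (0.29) were also higher at the unadjusted p. Of these, Kif22 was above background in only 2 of the 6 arrays, and Cdca5 was below it in all 6. Among the G1 regulators, cyclin D2 (Ccnd2), which couples signals to cell cycle entry, read 9.71, 9.65 and 9.73 in WT and 9.78, 9.83 and 10.03 in CD37KO, a difference of 0.19 (SE 0.0779, limma's unadjusted p = 0.0423, adjusted p = 0.801). Its groups did not overlap, and CD37KO array 2 was not the lowest of its group. Cdkn1b (p27, a brake on cyclin-dependent kinases) differed by -0.18 (SE 0.0816, limma's unadjusted p = 0.0584).

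Markers of other cells moved over the same arrays, and their part in the cell cycle values was not tested. For the 8 measured germinal centre markers, 7 of them above background by their means, the mean centred level was -0.16, 0.27 and -0.35 in WT and 0.22, -0.38 and 0.39 in CD37KO. The 3 arrays above 0 were those of the cell cycle genes, though not in the same order among themselves. They were the highest 3 in 6 of 8 markers (75%), beside 11.6% of the genes above background. Mybl1, a transcription factor of germinal centre B cells, read 7.64, 8.65 and 7.12 in WT and 8.54, 7.19 and 8.49 in CD37KO. The receptor S1pr2 read 5.81, 6.63 and 5.81 in WT and 6.50, 5.95 and 6.82 in CD37KO. Bcl6, the repressor that defines germinal centre B cells and is also transcribed in resting B cells, did not vary in this way and lay between 10.01 and 10.17.

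Rgs13 and Basp1 read 8.66, 9.29 and 8.58, and 8.33, 8.23 and 7.85, in WT. In CD37KO they read 8.87, 8.50 and 9.07, and 8.51, 7.70 and 8.62. In CD37KO both were lowest in array 2, but in WT Basp1 was highest in array 1 and not in array 2. None of the 8 markers differed by genotype at limma's unadjusted p under 0.05. Without CD37KO array 2, 4 of them were higher, when 6.48% of all genes were. The 11 mature B cell markers were flat, with mean centred levels between -0.05 and 0.03 in all arrays.

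For the 10 plasma cell markers the mean centred level ran from -0.11 to 0.01 in WT and from -0.05 to 0.08 in CD37KO. Jchain, the joining chain of secreted antibody, read 8.94, 9.78 and 9.24 in WT and 9.97, 9.26 and 10.14 in CD37KO, and Irf4 and Edem1 varied by less, from 10.85 to 11.07 and from 10.41 to 10.66. Tnfrsf17 and Fkbp11 were below background in all 6 arrays. The 9 erythroblast markers read 0.04, -0.16 and -0.03 in WT and 0.10, -0.10 and 0.15 in CD37KO. CD37KO arrays 1 and 3 were thus highest and CD37KO array 2 lowest of its group, as for the cell cycle genes, but WT array 2 was lowest of all. Klf1, Rhag, Sptb and Hemgn were below background in every array, while Epor was above it in 3 arrays and Alas2 in 4. Slc4a1 read 6.55, 5.99 and 6.23 in WT and 7.06, 6.01 and 6.90 in CD37KO. Tfrc lay between 9.23 and 9.50 and Ermap between 6.39 and 6.58. The 9 T cell markers ran from 0.00 to 0.06 in WT and from -0.05 to -0.04 in CD37KO, with Cd3d and Cd3g below background in every array and Cd4, Cd5 and Cd3e above it in all 6.

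The 12 markers of immature neutrophils, which divide in the marrow, were higher in CD37KO at limma's unadjusted p under 0.05 in 7 cases, beside 2.96% of all genes, and at an adjusted p under 0.05 in 0 (lowest 0.258). The count was 4 without WT array 2, WT array 3 or CD37KO array 3, when 3.71%, 2.66% and 1.52% of all genes were higher. It was 5 to 7 without any other array, beside 1.91% to 6.48% of all genes. Their mean centred level was -0.29, -0.39 and -0.30 in WT and 0.64, -0.04 and 0.37 in CD37KO. The granule gene Ngp read 8.34, 8.13 and 8.46 in WT and 11.09, 9.48 and 10.56 in CD37KO, and Lcn2 and Ltf were likewise higher in all CD37KO arrays, by 1.97 and 1.42. Cebpe, Ms4a3, Fcnb, Prtn3 and Ctsg of the same list were below background in every array. Elane and Mpo were above it only in CD37KO arrays 1 and 3, at 6.08 and 6.16 for Elane and 6.20 and 6.02 for Mpo. Camp was above it in 4 arrays and Chil3 in 1. The 8 mature neutrophil markers read -0.38, -0.65 and -0.35 in WT and 1.26, -0.20 and 0.32 in CD37KO, and of these S100a8 and S100a9 differed by 1.62 and 1.50 and Il1b by 0.21.

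Both neutrophil lists thus had CD37KO arrays 1 and 3 highest, as the cell cycle genes did, but WT array 2 lowest, where the cell cycle genes had WT array 2 highest of WT in 33 of 39. The 11 macrophage and monocyte markers, all above background in every array, read 0.39, -0.43 and -0.32 in WT and 0.56, -0.79 and 0.59 in CD37KO. They shared the low CD37KO array 2, but WT array 1 was their highest WT array and WT array 2 their lowest. Of these, Vcam1 ran from 9.47 to 11.03, Hmox1 from 9.62 to 11.09 and Cd68 from 9.53 to 10.68.

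**Figure D4:**
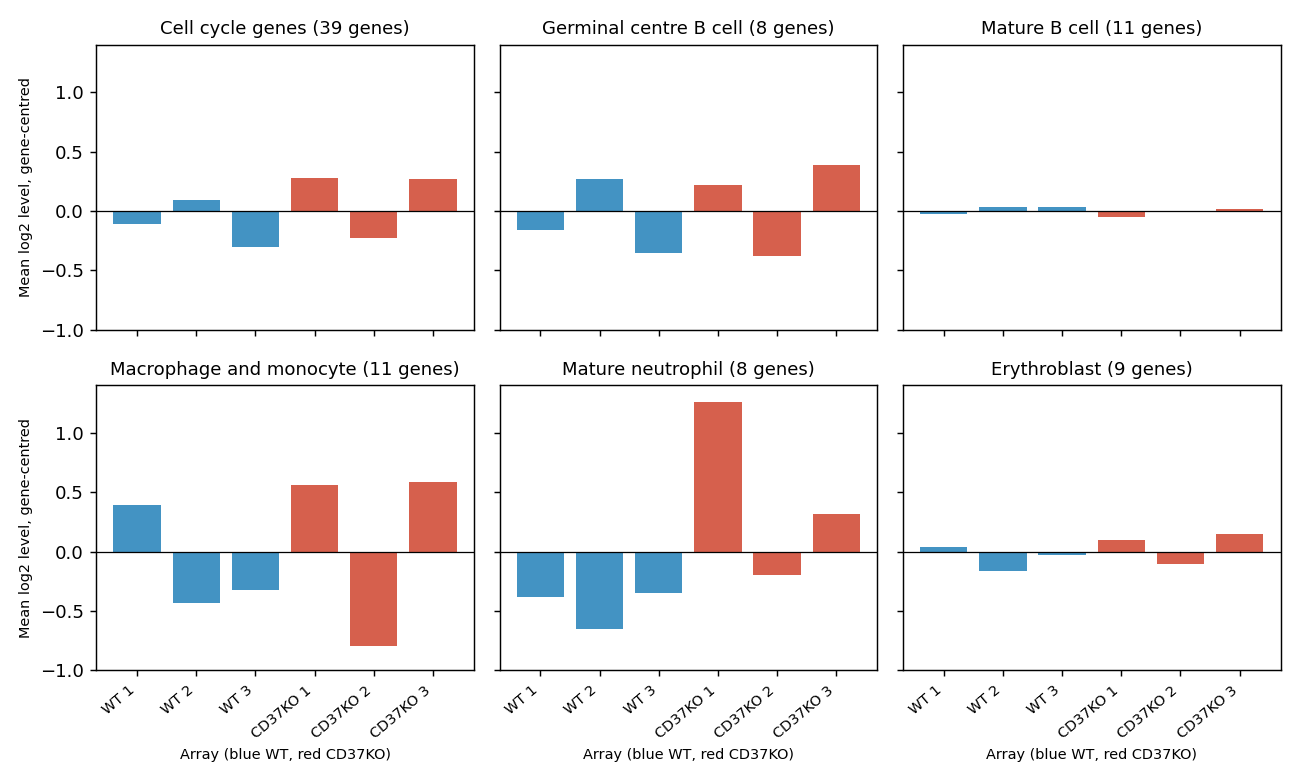
Mean log2 level per array of 6 lists, each gene centred on its mean over the 6 arrays (bars from 0, WT blue, CD37KO red). The cell cycle and germinal centre lists share WT 2 as their highest WT array, whereas in the macrophage, neutrophil and erythroblast lists WT 2 is the lowest WT array.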

How the data were processed

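RNA of CD43-/B220+ splenic B cells was hybridised to Affymetrix mouse gene arrays, 1 per sample, 3 WT and 3 CD37KO. The deposited values are log2 intensities after RMA by the authors (background correction, quantile normalization and probe summary), and the submitters' processing notes name the build mm8. No software version was given in the sources used here. Arrays have no read depth, and their number limits the precision.

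Of 35361 probe sets, 21780 named 1 gene, 1605 several and 11976 none in the platform annotation. Names were updated by Entrez ID in RefSeq's table, where 91 probe sets had no match. The probe set with the highest mean was kept per gene, giving 19935 genes. Groups were taken from the labels. Differences were tested with limma 3.58.1 (lmFit, eBayes, two-sided) in R 4.3.3 with Benjamini-Hochberg adjustment over all genes, and the script was tested on simulated data. Members, lists and the rules for naming genes were chosen with earlier results of these data known. All members could be named, and every array's value was given for the 3 genes of each phase with the smallest p, the 2 with the largest within-group SD, and Mki67, Top2a, Cdk1, Pcna and Mcm5. Of other cycle lists, genes at an unadjusted p under 0.05 were named, up to 6 per list, with Pold1, and of each marker list the 3 with the highest mean. Markers outside this rule (Mybl1, S1pr2, Cdkn1b, Spn and those named as below background or above it in only some arrays) were chosen after their values were seen. As alternatives, each array was left out in turn, arrays were weighted, the replicate number was entered as a block, values were quantile normalized again or centred on the median, probe sets were averaged, genes below background were dropped, and eBayes was run with trend and robust or replaced by ordinary least squares.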

Additional observations from a re-analysis of the deposited data

How the results depend on the processing

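No cell cycle gene reached an adjusted p under 0.05 in limma under any of 14 alternatives, and 31 of the 39 had the same sign in all that could be run for them, 14 for most and 13 for Birc5 and Cenpf, which the filter on background drops. The sign turned, with values close to 0, with quantile normalization for Cdt1 (-0.0063), Ccne1 (-0.0399) and Aurka (-0.000811), and with array weights for Cdt1 (-4.54e-05). Without single arrays it turned for Mcm7 (lowest -0.0416 to highest 0.202 over the left-out arrays), Cdt1 (-0.0222 to 0.0511), Gins1 (-0.0272 to 0.152), Rrm1 (-0.0321 to 0.243), Ccne1 (-0.0678 to 0.0843), Ccne2 (-0.0451 to 0.289) and Ccnb2 (-0.0402 to 0.412). The 11 genes called over all genes became 3 with ordinary least squares, 19 with array weights, 4 with the replicate number as a block and 4 to 14 with an array left out. The members higher at an unadjusted p numbered 1, then 24 with array weights and 0 to 27 with an array left out. The block left them at 1, and took the further mitotic genes higher at that p from 7 to 2. Those fell to 4 with quantile normalization, 3 among genes above background and 0 with ordinary least squares. Quantile normalization took the replication genes from 4 to 2, and the immature neutrophil markers went from 7 to 3 with ordinary least squares and 4 among genes above background. Of all genes tested in these settings, 2.62% were higher with quantile normalization, 2.12% with ordinary least squares and 4.07% among genes above background. Over genes above background, the deviations of same-numbered arrays from their group means correlated at 0.289, 0.0886 and -0.134. Those of arrays with different numbers correlated at -0.466 to 0.356. With 3 arrays per group, these values cannot show whether the numbers pair the samples. The cause of the changes in sign and in count was not tested. The S phase mean difference of 0.157 lay between 0.073 and 0.285 and the G2/M difference of 0.272 between 0.153 and 0.478 with an array left out, and the gap of -0.115 between -0.193 and -0.041. With MCM and origin factors set against mitotic kinases and kinesins the gap was -0.092. Members above background numbered 36 to 37 with an array left out.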
